A study of Mus musculus with 6 samples.

Results

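The genes described here are chosen by name, from protein families that act in pre-mRNA splicing. These are SR proteins (Srsf), heterogeneous nuclear ribonucleoproteins (Hnrnp) and small nuclear ribonucleoprotein (snRNP) proteins (Snrp). The SF3a and SF3b subunits of the U2 snRNP (Sf3a, Sf3b) and the Sm-like proteins (Lsm) are the others. All are called splicing factor genes here, although Lsm1, Lsm10, Lsm11 and Lsm14a have roles outside splicing, as given below. Of 65 protein-coding mouse symbols with these beginnings, 64 reached 10 counts in 3 libraries: 10 Srsf, 20 Hnrnp, 12 Snrp, 9 Sf3 and 13 Lsm genes, out of 55401 rows in the table. The symbol left out was Srsf12, with 5 to 13 counts in the Sms-OE libraries and 3 to 17 counts in the Control libraries. All 64 were tested, among 18277 genes.

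The libraries are RNA-seq libraries of F4/80+ cells, which the labels name macrophages. The cells were isolated from tumours that Hepa 1-6, a hepatoma line of the mouse, had formed in the right liver lobe over 14 days. In the Sms-OE group, 3 libraries came from tumours of hepatoma cells made to overexpress Sms, the gene of spermine synthase, with a lentivirus. In the Control group, 3 libraries came from tumours of cells that the labels call WT Control. No treatment was added in either group, and the labels name no allele of the host mice. Whether the Control cells carried an empty vector, the mouse strain, sex and age, whether either hepatoma line was 1 clone, and whether a library is 1 mouse or a pool are not stated in the labels. Sms was overexpressed in the injected hepatoma cells, so the comparison asks how F4/80+ cells differ between tumours of the 2 kinds. Nothing in the labels says that libraries came from separate animals, so the p-values measure the spread between these libraries, which may be technical.

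As background, introns are removed by the spliceosome, which is built on each intron from snRNPs. Each of the U1, U2, U4 and U5 snRNPs holds a ring of Sm proteins closed around its RNA, while U6 carries a ring of LSm proteins. SF3a and SF3b join the U2 snRNP and hold the branch site of the intron. SR proteins bind exons and as a rule promote their inclusion, hnRNP proteins often oppose them, and both also act in RNA export, stability and translation. Macrophages change the splicing of immune genes when they are activated.

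The start regions of 4 genes are shown because they stand for the patterns below: Snrpe and Snrpd2, the Sm ring genes with the lowest fold changes, and Srsf6 and Sf3b1, which were higher. They are RefSeq sequences on GRCm38.p6, 5′ to 3′ on the gene's strand, from 250 bases before to 50 bases after an annotated start. Capitals mark a match on either strand to CGGAAG, the core of ETS factor sites, or to GGGCGG, the Sp1 box. The windows are chr1:133610231-133610530 on the minus strand for Snrpe, chr7:19149588-19149887 on the plus strand for Snrpd2, chr2:162931258-162931557 on the plus strand for Srsf6 and chr1:55027429-55027728 on the minus strand for Sf3b1.
Snrpe: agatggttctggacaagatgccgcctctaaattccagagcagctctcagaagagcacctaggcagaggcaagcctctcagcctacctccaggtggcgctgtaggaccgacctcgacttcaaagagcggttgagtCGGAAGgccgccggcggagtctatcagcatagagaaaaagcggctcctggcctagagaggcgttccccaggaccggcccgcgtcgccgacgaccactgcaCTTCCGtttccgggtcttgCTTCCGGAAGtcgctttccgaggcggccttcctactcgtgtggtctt
Snrpd2: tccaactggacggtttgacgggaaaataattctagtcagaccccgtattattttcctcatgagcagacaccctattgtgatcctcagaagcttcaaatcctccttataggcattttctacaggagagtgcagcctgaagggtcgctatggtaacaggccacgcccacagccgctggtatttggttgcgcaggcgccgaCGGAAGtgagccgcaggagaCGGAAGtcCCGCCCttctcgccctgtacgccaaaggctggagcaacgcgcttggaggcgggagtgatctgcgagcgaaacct
Srsf6: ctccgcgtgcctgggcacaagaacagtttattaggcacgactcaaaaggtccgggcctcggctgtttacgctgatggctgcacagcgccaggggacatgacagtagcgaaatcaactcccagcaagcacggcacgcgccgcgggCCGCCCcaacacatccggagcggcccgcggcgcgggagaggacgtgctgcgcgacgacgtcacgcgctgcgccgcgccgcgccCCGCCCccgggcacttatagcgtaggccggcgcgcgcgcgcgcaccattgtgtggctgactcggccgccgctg
Sf3b1: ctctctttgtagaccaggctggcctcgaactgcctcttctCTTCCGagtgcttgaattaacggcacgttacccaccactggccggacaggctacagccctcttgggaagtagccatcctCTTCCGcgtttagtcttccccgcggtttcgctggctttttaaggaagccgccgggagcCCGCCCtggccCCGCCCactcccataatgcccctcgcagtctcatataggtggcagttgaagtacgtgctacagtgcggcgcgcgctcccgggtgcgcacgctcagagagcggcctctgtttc
The Snrpe window held 4 ETS core matches, of which 2 overlap in one palindrome, and no Sp1 box. The Snrpd2 window held 2 ETS cores and 1 Sp1 box, the Srsf6 window 2 Sp1 boxes and no ETS core, and the Sf3b1 window 2 of each. RefSeq windows were matched for 55 of the 64 genes, 74 windows in all. Of these, 47.3% held an ETS core, against 16.9% of all 32841 windows, and 71.6% held an Sp1 box, against 35.7%. All 8 windows of Sf3a and Sf3b genes held an ETS core. An E-box (CACGTG) stood in 9.46% of the splicing factor windows and 7.15% of all windows, a CCAAT box (CCAAT) in 44.6% and 37.4%, and a TATA box (TATAAA) in 9.46% and 13.6%, each counted on both strands. The ETS core stood in 11 of the 22 windows of genes that were lower in Sms-OE and in 2 of the 7 windows of those that were higher. The Sp1 box stood in 15 of those 22 and in all 7. The 22 windows belong to 19 genes and the 7 to only 3 genes, and the difference was not tested. A match is a run of letters, not a bound site, and windows of 1 gene can overlap.

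Library totals were 49833764 to 51123047 counts in the Sms-OE libraries and 51583985 to 58154006 in the Control libraries. The defining macrophage genes were present in every library: the 10 macrophage markers summed to 6203 to 7325 CPM (counts scaled to library size with TMM factors) in Sms-OE and 6554 to 6711 CPM in Control, with 1 higher (Itgam) and 4 lower (Cd68, C1qa, C1qb, C1qc). Sms itself had 32.95, 33.2 and 33.2 CPM in Sms-OE libraries, against 26.03, 28.3 and 26.2 CPM in Control libraries (log2 fold change 0.30 ± 0.09 SE, adjusted p = 0.0382). RNA of other cell types was also present. The 10 hepatocyte and hepatoma markers summed to 434 to 662 CPM in Sms-OE and 812 to 1015 CPM in Control, and 8 of them were lower in Sms-OE. Haemoglobin rows held 0.0225%, 0.485% and 0.512% of counts in Sms-OE replicates 1, 2 and 3, and 0.00441% to 0.0172% in Control, so Sms-OE replicates 2 and 3 stand apart. Mitochondrially encoded rows held 2.16% to 3.12% in Sms-OE and 4.99% to 7.13% in Control. Of 20 cell cycle genes, 14 were lower and 1, Mki67, was higher in Sms-OE, and the list summed to 799 to 1050 CPM in Sms-OE and 1208 to 1516 CPM in Control. Of 7 dendritic cell markers, 3 were lower and 1 was higher. Of 6 endothelial markers, 3 were lower and 1 was higher. Of 6 stellate cell and fibroblast markers, 2 were higher and 0 lower, and they summed to 107 to 148 CPM in Sms-OE and 75.5 to 95 CPM in Control. The 7 neutrophil markers summed to 4325 to 6067 CPM in Sms-OE and 5180 to 7735 CPM in Control, close to the macrophage sum, with 1 higher (Mpo) and 0 lower. Of 10 T and NK cell markers 1 was higher, and of 6 B cell markers none was called. The part of these differences in the results below was not tested, except where a value is given. In RNA from a mixture of cells, fewer cells of a type and less RNA per cell cannot be told apart.

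Without an offset for transcript length, Sms-OE libraries had less RNA of many snRNP ring genes and their partners, while few SR and hnRNP genes differed, and in both directions. With edgeR's quasi-likelihood test and an adjusted p under 0.05 over all genes (called), 3 of the 64 genes were higher in Sms-OE, namely Srsf6, Hnrnph1 and Sf3b1. Another 21 were lower and 40 were not called. Of all 18277 genes, 26.9% were called, 12.5% higher and 14.3% lower. The members' share called lower was 32.8%, and their median log2 fold change was -0.19, against -0.000599 over all genes. Among Snrp genes 9 of 12 were lower and 0 were higher, and among Lsm genes 6 of 13 were lower and 0 were higher. Among Sf3 genes 3 of 9 were lower and 1 was higher, among Hnrnp genes 2 of 20 were lower and 1 was higher, and among Srsf genes 1 of 10 was lower and 1 was higher. The median log2 fold change was -0.66 for Snrp, -0.46 for Lsm, -0.24 for Sf3, -0.06 for Hnrnp and 0.08 for Srsf. Snrp and Lsm transcripts are short, and length moved with the fold changes of all genes, as given below. With an offset for length and GC content 6 Snrp genes and 1 Lsm gene were lower, with medians of -0.36 and -0.11. In that fit 3 Sf3 genes were lower and 0 higher, 2 Hnrnp genes lower and 2 higher, and 1 Srsf gene lower and 3 higher. Counting groups of libraries that do not overlap, 27 members (42.2%) had all 3 Sms-OE values below all 3 Control values and 9 (14.1%) had them all above, against 23.3% and 20.8% of all genes. The 64 genes together held 0.847%, 0.856% and 0.861% of all counts in Sms-OE libraries and 0.871%, 0.840% and 0.822% in Control libraries, so their summed share overlapped between the groups. Scaling by library size alone gave 5 higher and 17 lower members, and 2521 higher and 1788 lower of all genes, against 2293 and 2615 with TMM factors. Without the haemoglobin-rich Sms-OE replicates 2 and 3, a fit chosen after seeing the data that leaves 1 Sms-OE library and assumes that it varies like the Control libraries, 0 members were higher and 6 were lower, 5 of them Snrp genes, among 1384 called of 20358 genes.

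**Figure D1:**
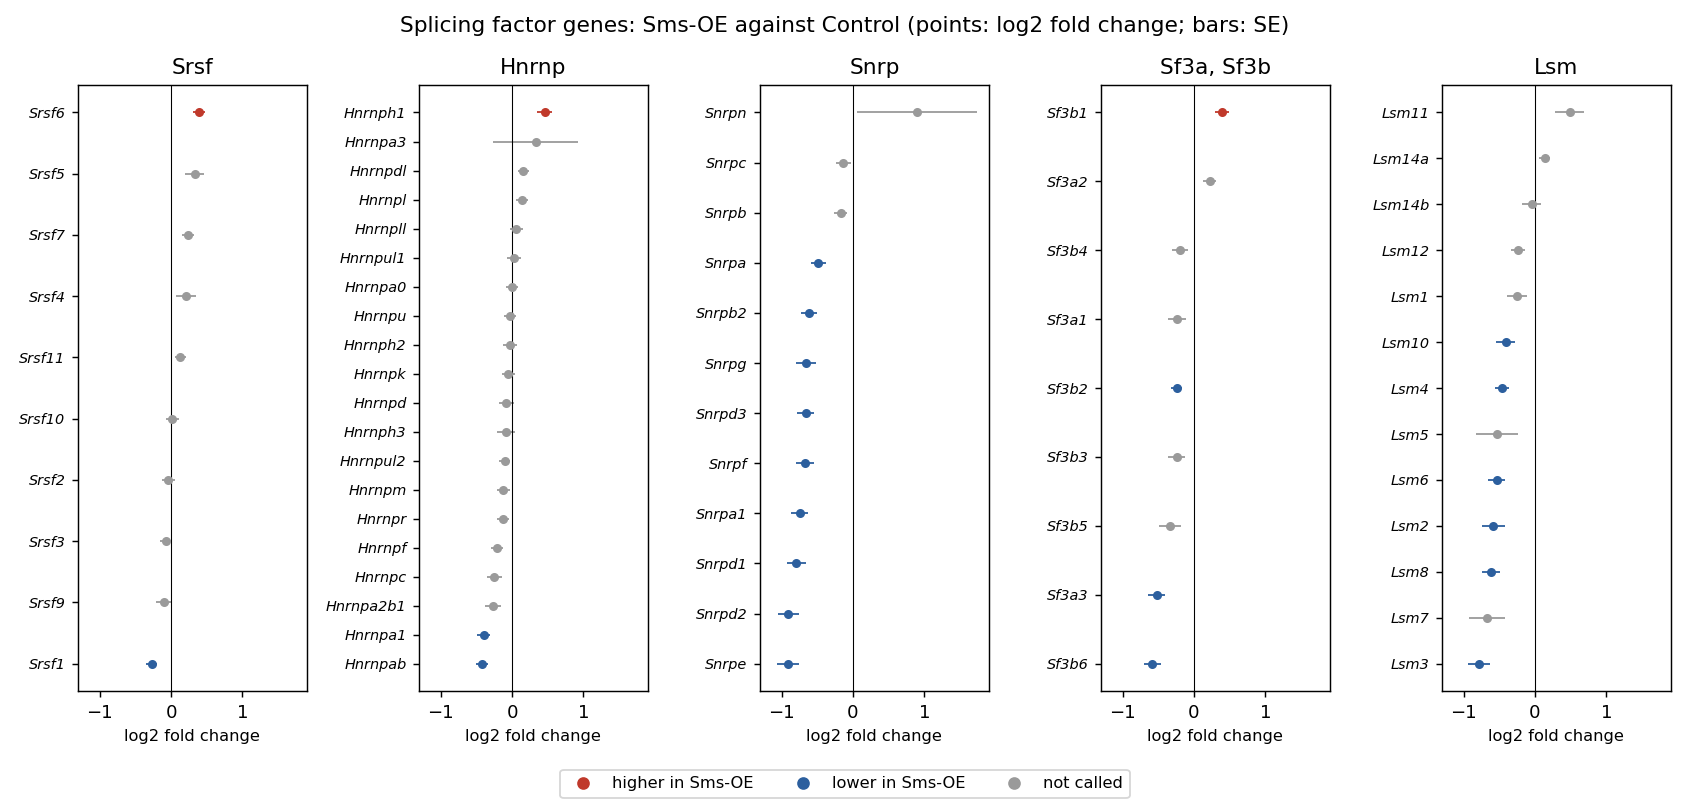
Log2 fold change (x axis) of each of the 64 splicing factor genes (rows), Sms-OE against Control, in 1 panel per name group. Points are edgeR estimates, bars are 1 SE, and colour gives the call at an adjusted p under 0.05; 9 of 12 Snrp and 6 of 13 Lsm genes lie left of 0 and are called, and 3 genes in the other panels are called to the right.

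The 3 lowest log2 fold changes of the set belonged to Sm ring genes. Snrpe, which encodes SmE and lies at chr1:133603871-133610291 (GRCm38, GENCODE M21), had 22.5, 31.4 and 29.2 CPM in Sms-OE libraries, against 44.8, 48.1 and 63.4 CPM in Control libraries. No Sms-OE library reached the lowest Control library, and the log2 fold change was -0.91 ± 0.16 (SE, adjusted p = 0.00291). Snrpd2, the gene of SmD2 at chr7:19149722-19153542, had 22.3, 22.4 and 16.6 CPM in Sms-OE libraries, against 37.9, 33.04 and 44.2 CPM in Control libraries. Its log2 fold change was -0.91 ± 0.15 (SE, adjusted p = 0.00222), and again the groups were apart. Snrpd1, the gene of SmD1, had 26.4, 24.6 and 20.4 CPM in Sms-OE libraries, against 39.03, 36.6 and 48.1 CPM in Control libraries (log2 fold change -0.79 ± 0.14 SE, adjusted p = 0.00271). SmD1 and SmD2 sit side by side in the ring, and their genes had log2 fold changes of -0.79 and -0.91. With an offset for length and GC content, taken up below, these were -0.42 and -0.66. The ring genes as a whole, Snrpn aside, ran from -0.91 for Snrpe to -0.17 for Snrpb.

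Of the 5 other ring genes 3 were lower. Snrpf, the gene of SmF, had 15.7, 15.2 and 16.4 CPM in Sms-OE libraries, against 24.2, 22.2 and 28.8 CPM in Control libraries (log2 fold change -0.67 ± 0.13 SE, adjusted p = 0.00418). Snrpd3, the gene of SmD3, had 36.1, 41.4 and 31.2 CPM in Sms-OE libraries, against 52.7, 55.9 and 63.7 CPM in Control libraries (log2 fold change -0.66 ± 0.12 SE, adjusted p = 0.00353). The Snrpd3 locus is shared with Gucd1 on the opposite strand, whose counts come to 73.3% of those of Snrpd3. Snrpg, the gene of SmG, had 32.3, 27.6 and 25.9 CPM in Sms-OE libraries, against 42.5, 38.5 and 54.3 CPM in Control libraries (log2 fold change -0.66 ± 0.14 SE, adjusted p = 0.00781). In all 3 of these genes each Sms-OE library was below each Control library. Snrpb, the gene of SmB and the ring gene with the most counts, had 93.2, 115 and 105 CPM in Sms-OE libraries, against 118, 118 and 117 CPM in Control libraries. Its groups did not overlap, but it was not called (log2 fold change -0.17 ± 0.09 SE, adjusted p = 0.194). Snrpn, an imprinted gene whose SmN protein replaces SmB mainly in neurons, was close to absent, with 0.348 ± 0.26 CPM in Sms-OE and 0.186 ± 0.072 CPM in Control (SD, n = 3 each). It was the one ring gene with a log2 fold change above 0, 0.90 ± 0.84 (SE, adjusted p = 0.475), and was not called.

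Per kilobase of transcript, on the scale of mean CPM divided by length, the ring genes were unequal although the proteins meet in equal number. Snrpe stood at 55.1 in Sms-OE and 103.6 in Control, and Snrpb at 89.9 in Sms-OE and 101.4 in Control. Snrpd1 stood at 27.7 and 48.1, Snrpg at 27.1 and 42.7, Snrpf at 18.3 and 29.1, Snrpd2 at 14.4 and 27.03 and Snrpd3 at 11.9 and 18.9, Sms-OE before Control in each pair. The means of Snrpe and Snrpb were thus further apart in Sms-OE than in Control, a contrast between genes that was not tested.

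Of the 4 Snrp genes whose proteins belong to U1 or U2 alone, 3 were lower. Snrpa1 encodes the A′ protein of U2, which holds its partner B″ on an RNA loop, and had 20.01, 15.6 and 18.4 CPM in Sms-OE libraries, against 31.96, 30.4 and 28.4 CPM in Control libraries (log2 fold change -0.75 ± 0.12 SE, adjusted p = 0.00211). Snrpb2, the gene of that partner, had 30.1, 26.5 and 27.9 CPM in Sms-OE libraries, against 39.95, 40.5 and 49.5 CPM in Control libraries (log2 fold change -0.62 ± 0.11 SE, adjusted p = 0.00359). Both genes of this pair were lower, with no overlap between groups. Snrpa encodes the A protein of U1, which binds a loop of U1 RNA, and had 23.2, 29.2 and 26.9 CPM in Sms-OE libraries, against 37.5, 36.9 and 36.6 CPM in Control libraries (log2 fold change -0.48 ± 0.11 SE, adjusted p = 0.00914). On the opposite strand of Snrpa lies BC024978, with 44.6% as many counts. Snrpc, the gene of the C protein of U1, which helps U1 to hold the start of the intron, had 38.3, 43.4 and 42.5 CPM in Sms-OE libraries, against 41.02, 46.5 and 48.7 CPM in Control libraries, overlapping groups that were not called (log2 fold change -0.13 ± 0.10 SE, adjusted p = 0.363).

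The 12 Snrp genes summed to 360.1, 393 and 361 CPM in Sms-OE libraries and to 510, 507 and 583 CPM in Control libraries. The summed level was 371 ± 19 CPM in Sms-OE and 533 ± 43 CPM in Control (SD, n = 3 each). All 9 Snrp calls were also made with each library left out in turn. Control replicate 3 had the highest value of 7 of the 9 called genes, and it also had the highest hepatocyte marker sum of the series. Hepatocyte and hepatoma markers and cell cycle genes moved the same way as the Snrp genes, and their part was not tested beyond a fit with the hepatocyte marker level as a covariate. That level did not overlap between the groups (mean log2 of CPM plus 1: 3.70, 3.45 and 3.00 in Sms-OE, 4.77, 4.93 and 5.35 in Control), so it and the group cannot be told apart. In that fit 0 genes of all 18277 were called, with 1233 at an unadjusted p under 0.05, and the Snrp median log2 fold change was -0.09.

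**Figure D2:**
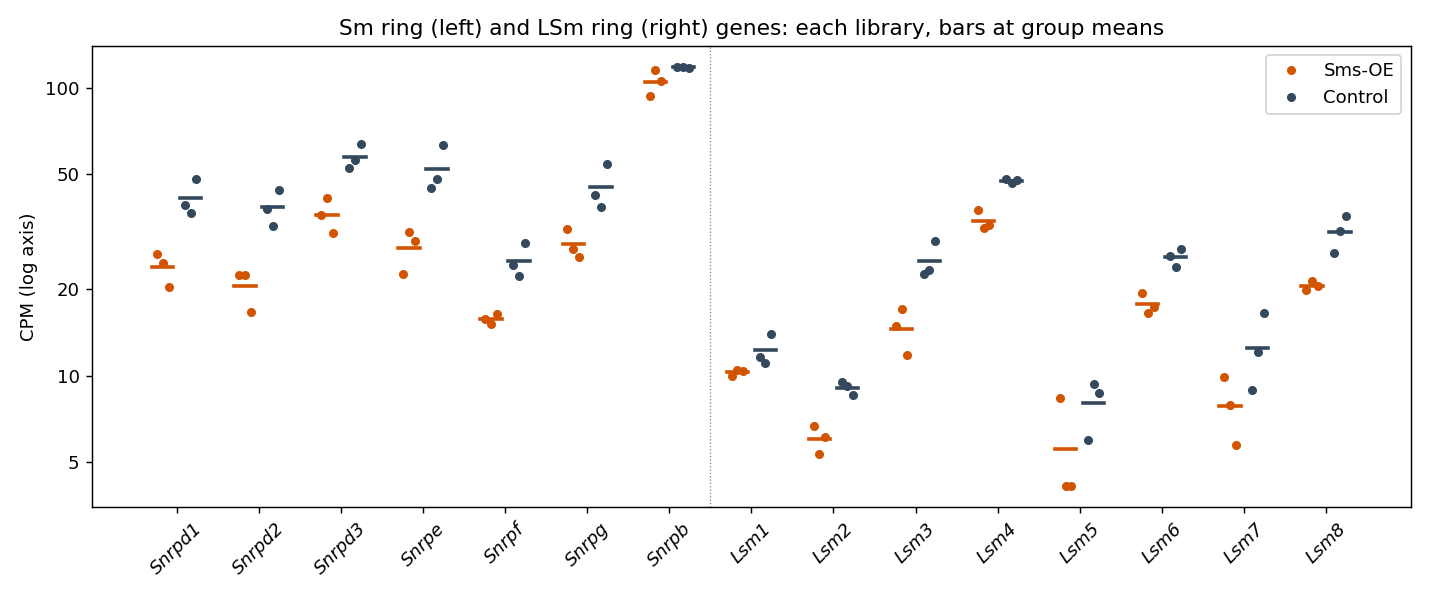
Level of the Sm ring genes (left of the dotted line) and LSm ring genes (right) in each library, in CPM on a log axis. Points are libraries, Sms-OE left and Control right within each gene, and short lines are means; the groups are apart in all 7 Sm genes drawn, while Lsm5 and Lsm7 overlap.

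Of the 8 LSm ring genes, 5 were lower. Lsm1 to Lsm8 encode 2 overlapping rings: Lsm8 joins Lsm2 to Lsm7 in the nucleus on U6 RNA, and Lsm1 takes its place in the cytoplasm in a ring that acts in mRNA decay. All 8 log2 fold changes were below 0, from -0.79 to -0.25. Lsm3 had 14.9, 16.98 and 11.8 CPM in Sms-OE libraries, against 22.6, 23.3 and 29.4 CPM in Control libraries (log2 fold change -0.79 ± 0.16 SE, adjusted p = 0.00615). Lsm8, the subunit found only in the U6 ring, had 19.8, 21.3 and 20.5 CPM in Sms-OE libraries, against 26.6, 31.8 and 35.95 CPM in Control libraries (log2 fold change -0.62 ± 0.12 SE, adjusted p = 0.00602). In both genes every Sms-OE library was below every Control library. Lsm6 had 19.4, 16.5 and 17.3 CPM in Sms-OE libraries, against 26.1, 23.7 and 27.4 CPM in Control libraries (log2 fold change -0.54 ± 0.12 SE, adjusted p = 0.00788). Lsm4, whose tail holds arginines that are methylated as in Sm proteins, had 37.5, 32.6 and 33.4 CPM in Sms-OE libraries, against 48.1, 46.7 and 47.7 CPM in Control libraries (log2 fold change -0.46 ± 0.09 SE, adjusted p = 0.00579). Lsm2 had 6.70, 5.34 and 6.11 CPM in Sms-OE libraries, against 9.47, 9.22 and 8.56 CPM in Control libraries (log2 fold change -0.59 ± 0.16 SE, adjusted p = 0.0241). These 3 also had groups that did not overlap, but Lsm2 was called in 2 of the 6 fits that left out 1 library, with adjusted p of up to 0.0772.

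Lsm1, the subunit of the decay ring, had 9.996, 10.4 and 10.4 CPM in Sms-OE libraries, against 11.7, 11.1 and 13.96 CPM in Control libraries, groups just apart and not called (log2 fold change -0.25 ± 0.14 SE, adjusted p = 0.221). The difference between Lsm8 and Lsm1 was not tested. Lsm5 and Lsm7 had overlapping groups, with log2 fold changes of -0.53 ± 0.29 (SE, adjusted p = 0.222) and -0.67 ± 0.25 (SE, adjusted p = 0.0746). Both have near-identical copies elsewhere in the genome, taken up below. Per kilobase, mean levels in Sms-OE and Control were 37.3 and 51.4 for Lsm4, 32.8 and 47.6 for Lsm6, 25.4 and 38.99 for Lsm8, 23.6 and 40.6 for Lsm3, 7.20 and 10.8 for Lsm2, and 3.85 and 4.59 for Lsm1.

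Of the Lsm genes outside these rings, 1 was called. Lsm10 and Lsm11 replace a pair of Sm proteins in the U7 snRNP, which cuts the ends of histone mRNAs. Lsm10 had 12.6, 12.5 and 10.5 CPM in Sms-OE libraries, against 14.9, 15.7 and 16.7 CPM in Control libraries (log2 fold change -0.41 ± 0.13 SE, adjusted p = 0.0418), and this call was lost in every one of the 6 fits that left out 1 library. Lsm11 went numerically the other way, with 9.50, 7.99 and 6.34 CPM in Sms-OE libraries, against 5.23, 6.84 and 4.96 CPM in Control libraries, and was not called (log2 fold change 0.48 ± 0.21 SE, adjusted p = 0.115). Lsm14a, a component of P-bodies and the Lsm gene with the most counts, had 117, 123 and 125 CPM in Sms-OE libraries, against 109, 109 and 114 CPM in Control libraries and was not called (log2 fold change 0.14 ± 0.08 SE, adjusted p = 0.223). Lsm12 and Lsm14b were not called either, with log2 fold changes of -0.23 and -0.05. The 13 Lsm genes summed to 304 ± 8.4 CPM in Sms-OE and 354 ± 19 CPM in Control (SD, n = 3 each).

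In the U2-bound SF3 complexes, calls were made in both directions. Sf3b1, the large scaffold that grips the branch site and is often mutated in human myelodysplasia, lies at chr1:54985169-55027481 and had 693, 797 and 756 CPM in Sms-OE libraries, against 545, 592 and 580.1 CPM in Control libraries. It was higher in all 3 Sms-OE libraries (log2 fold change 0.39 ± 0.10 SE, adjusted p = 0.0151). Its partner at the branch site, Sf3b6 (p14), had 46.6, 50.2 and 40.5 CPM in Sms-OE libraries, against 62.5, 64.03 and 79.3 CPM in Control libraries and was lower (log2 fold change -0.58 ± 0.12 SE, adjusted p = 0.00610). Sf3a3, the subunit of SF3a that ties it to the U2 snRNP, had 37.5, 34.3 and 29.7 CPM in Sms-OE libraries, against 51.5, 43.6 and 50.99 CPM in Control libraries and was lower (log2 fold change -0.52 ± 0.11 SE, adjusted p = 0.00824). Sf3b2 had 194, 193 and 195 CPM in Sms-OE libraries, against 228, 225 and 236 CPM in Control libraries and was lower by a small and even amount (log2 fold change -0.24 ± 0.08 SE, adjusted p = 0.0451).

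The Sf3b6 and Sf3a3 calls were made with any 1 library left out. The Sf3b1 call was kept in 3 of those 6 fits, each without 1 Sms-OE library, and its adjusted p was 0.0610, 0.0629 and 0.0505 without Control replicates 1, 2 and 3. The Sf3b2 call was lost in all 6, with adjusted p of 0.0664 to 0.108. The 5 other genes were not called: Sf3a2 at 0.22, Sf3b4 at -0.20, Sf3a1 at -0.24, Sf3b3 at -0.24 and Sf3b5 at -0.34 on the log2 fold scale. Of these, Sf3a2 shares its locus with Plekhj1 on the opposite strand, which has 75.4% as many counts. Per kilobase Sf3b1 stood at 120.8 in Sms-OE and 92.4 in Control, above Sf3b2, next in order, at 60.2 and 71.2.

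Among the SR genes 1 was higher and 1 was lower. Srsf6, whose protein binds purine-rich exon sequences, lies at chr2:162931528-162937121 and had 163, 182 and 178 CPM in Sms-OE libraries, against 134, 131 and 134 CPM in Control libraries (log2 fold change 0.39 ± 0.08 SE, adjusted p = 0.00736). All Sms-OE libraries were above all Control libraries, and the call was lost in 1 of the 6 fits that left out a library, that without Control replicate 2 (adjusted p = 0.0509). Srsf1, the gene of a well studied SR protein that binds exonic enhancers and also acts in translation, had 120.1, 115 and 114 CPM in Sms-OE libraries, against 146, 141 and 135 CPM in Control libraries (log2 fold change -0.27 ± 0.08 SE, adjusted p = 0.0271). Its groups were apart too, but the call was kept in only 2 of the 6 fits, with adjusted p of up to 0.0859. Srsf5 had the most counts, with 569.7, 752 and 604 CPM in Sms-OE libraries, against 452, 521 and 560 CPM in Control libraries. These groups were just apart and not called (log2 fold change 0.33 ± 0.13 SE, adjusted p = 0.0840).

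Srsf3, the gene of the smallest SR protein, which also acts in mRNA export, had 246, 263 and 243 CPM in Sms-OE libraries, against 255, 258 and 278 CPM in Control libraries, overlapping groups (log2 fold change -0.07 ± 0.09 SE, adjusted p = 0.575). The other 6 SR and SR-like genes were not called. Of these, Srsf7 had 137, 154 and 130.5 CPM in Sms-OE libraries, against 118, 121 and 118 CPM in Control libraries and Srsf11 had 123, 132 and 128 CPM in Sms-OE libraries, against 114, 117 and 118 CPM in Control libraries; both had groups apart, with log2 fold changes of 0.24 ± 0.09 (SE, adjusted p = 0.0645) and 0.13 ± 0.08 (SE, adjusted p = 0.237). Srsf4, Srsf10, Srsf2 and Srsf9 overlapped, at 0.21, 0.02, -0.04 and -0.10. The 10 Srsf genes summed to 1694, 1965 and 1735 CPM in Sms-OE libraries and 1579, 1645 and 1664 CPM in Control libraries.

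Of the 20 hnRNP genes, the largest of the 5 groups, 3 were called. Hnrnph1 encodes a protein that binds runs of guanines near splice sites, and had 409, 490.5 and 452 CPM in Sms-OE libraries, against 301, 348 and 335 CPM in Control libraries (log2 fold change 0.46 ± 0.10 SE, adjusted p = 0.00937). Hnrnpab had 253, 232 and 233 CPM in Sms-OE libraries, against 328, 313 and 319.5 CPM in Control libraries (log2 fold change -0.42 ± 0.08 SE, adjusted p = 0.00597). Hnrnpa1, the gene of a widely studied silencer of exons, had 309, 286 and 296 CPM in Sms-OE libraries, against 399, 375 and 401 CPM in Control libraries (log2 fold change -0.40 ± 0.09 SE, adjusted p = 0.00809). In these 3 genes the groups did not overlap, and the calls were made with any 1 library left out. The relatives of Hnrnph1 were not called: Hnrnph2 at -0.03, Hnrnph3 at -0.09 and Hnrnpf at -0.21 on the log2 fold scale.

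Hnrnpa2b1, the Hnrnp gene with the most counts, had 516, 624 and 520.1 CPM in Sms-OE libraries, against 619, 664 and 715 CPM in Control libraries, 1 Sms-OE library lying just above the lowest Control library (log2 fold change -0.27 ± 0.11 SE, adjusted p = 0.0982). Hnrnpu, whose protein binds chromatin and RNA across the nucleus, had 437, 461 and 451 CPM in Sms-OE libraries, against 467, 457 and 448 CPM in Control libraries and a log2 fold change of -0.03 ± 0.09 (SE, adjusted p = 0.858). That value lies above 0 with upper-quartile factors (0.01), with library size alone (0.04) and with a stricter count filter (0.00), so it has no stable sign. The other Hnrnp genes lay between -0.25 for Hnrnpc and 0.33 for Hnrnpa3 and were not called. The 20 genes summed to 4622 ± 182 CPM in Sms-OE and 4915 ± 81 CPM in Control (SD, n = 3 each), and the sums of single libraries were 4448 to 4811 in Sms-OE and 4836 to 4998 in Control.

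With each gene counted alone, the highest mean levels per kilobase of all 64 genes belonged to Srsf5 and Hnrnpa2b1. Srsf5 stood at 430.5 in Sms-OE and 343 in Control, and Hnrnpa2b1 at 338 in Sms-OE and 407 in Control. Neither gene was called, and Srsf5 was the higher of the pair in Sms-OE and the lower in Control. Near-identical copies were not counted in this order. Hnrnpa3 (1140 bases) summed with its non-coding copies had 403.6 CPM in Sms-OE and 519.1 CPM in Control, so its place in the order is uncertain.

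**Figure D3:**
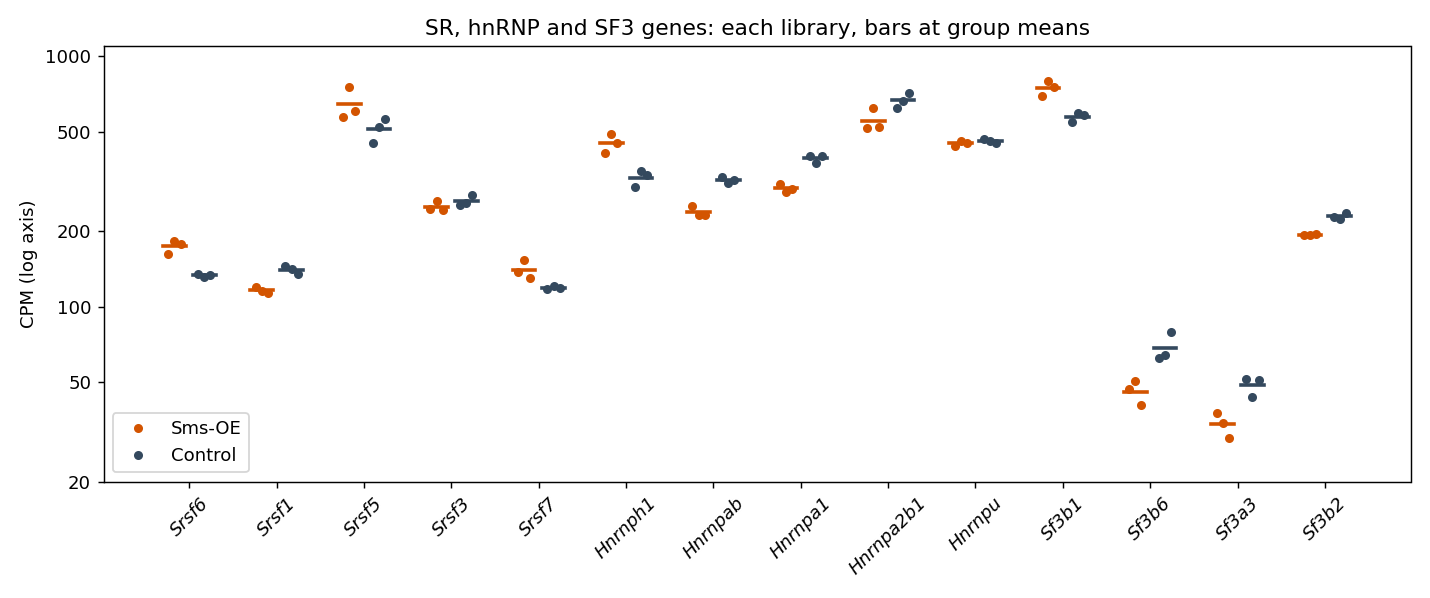
Level of the named SR, hnRNP and SF3 genes in each library, in CPM on a log axis, with Srsf7 added after its values were seen. Points are libraries, Sms-OE left and Control right within each gene, and short lines are means; Srsf6, Hnrnph1 and Sf3b1 lie higher in Sms-OE, and Hnrnpab, Hnrnpa1, Sf3b6, Sf3a3 and Sf3b2 lie lower.

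Genes of the splicing machinery outside the name rule were read from 5 lists holding 131 tested genes, of which 18 were higher (13.7%) and 28 lower (21.4%) in Sms-OE, against 12.5% and 14.3% of all genes. The share that was higher was thus near that of all genes. Of 16 genes that assemble snRNPs, in the SMN complex and the methylosome, 6 were lower (37.5%) and 0 were higher. All 16 log2 fold changes were below 0, with a median of -0.49. The sign is uncertain for Gemin4, with 0, 3.21 and 0 CPM in Sms-OE libraries, against 8.16, 5.175 and 0.0625 CPM in Control libraries (log2 fold change -2.07 ± 2.235 SE, adjusted p = 0.568). The list's median transcript length was 1765 bases, and in the length class of 1320 to 2351 bases 18.6% of all genes were lower. Its calls were not counted under length and GC offsets. Gemin6, an SMN complex subunit, had 2.33, 2.01 and 1.66 CPM in Sms-OE libraries, against 5.68, 5.46 and 4.50 CPM in Control libraries (log2 fold change -1.38 ± 0.23 SE, adjusted p = 0.00245). Clns1a encodes pICln, which holds Sm proteins before they are loaded on RNA, and had 27.3, 28.1 and 24.2 CPM in Sms-OE libraries, against 39.6, 40.3 and 38.5 CPM in Control libraries (log2 fold change -0.57 ± 0.10 SE, adjusted p = 0.00276). Prmt5, named here after its value was seen because it methylates Sm proteins, had 18.8 ± 1.3 CPM in Sms-OE and 26.3 ± 1.4 CPM in Control (SD, n = 3 each), and a log2 fold change of -0.49 ± 0.11 (SE, adjusted p = 0.00931). In these 3 assembly genes every Sms-OE library was below every Control library.

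Of 55 other core spliceosome genes, 15 were lower (27.3%) and 4 were higher (7.27%), against 14.3% and 12.5% of all genes. Their median log2 fold change was -0.10. Prpf31, which bridges U4/U6 and U5 in the tri-snRNP, had 35.6, 26.2 and 28.7 CPM in Sms-OE libraries, against 70.5, 61.5 and 59.1 CPM in Control libraries (log2 fold change -1.08 ± 0.13 SE, adjusted p = 0.000513). Zmat2, another core spliceosome gene, had 39.8 ± 2.0 CPM in Sms-OE and 59.5 ± 5.9 CPM in Control (SD, n = 3 each), and a log2 fold change of -0.58 ± 0.10 (SE, adjusted p = 0.00257). Both had groups that did not overlap. Prpf39, a U1-associated protein, was higher, with 57.2 ± 1.9 CPM in Sms-OE and 42.6 ± 2.4 CPM in Control (SD, n = 3 each), and a log2 fold change of 0.42 ± 0.09 (SE, adjusted p = 0.00618). Dhx38, a helicase of the second splicing step, was higher too, with 160.2 ± 9.4 CPM in Sms-OE and 122 ± 4.7 CPM in Control (SD, n = 3 each), and a log2 fold change of 0.39 ± 0.08 (SE, adjusted p = 0.00788).

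The 26 SR protein kinases and SR-related proteins went the other way, with 13 higher (50%), 0 lower and a median log2 fold change of 0.24. Their transcripts are long, with a median of 3709.5 bases, and length is taken up below. Of all genes 12.5% were higher, with 12.3% in the length class of 2351 to 3742 bases and 25.6% in the longest class. Calls in this list were not counted under length and GC offsets. Srrm2, a large scaffold of nuclear speckles, had 758, 861 and 889.6 CPM in Sms-OE libraries, against 446, 493 and 488 CPM in Control libraries (log2 fold change 0.81 ± 0.10 SE, adjusted p = 0.000658). Scaf4, which binds the tail of RNA polymerase II, had 48.2, 61.4 and 55.3 CPM in Sms-OE libraries, against 30.9, 33.5 and 29.2 CPM in Control libraries (log2 fold change 0.82 ± 0.11 SE, adjusted p = 0.000950). No Sms-OE library of either gene overlapped a Control library.

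Of 28 other RNA-binding regulators of splicing, 6 were lower (21.4%) and 1 was higher (3.57%), against 14.3% and 12.5% of all genes. Ybx1, a cold shock domain protein, had 363 ± 23 CPM in Sms-OE and 520.2 ± 5.6 CPM in Control (SD, n = 3 each), and a log2 fold change of -0.52 ± 0.09 (SE, adjusted p = 0.00283). Nono, a paraspeckle protein, had 183 ± 14 CPM in Sms-OE and 240 ± 8.6 CPM in Control (SD, n = 3 each), and a log2 fold change of -0.39 ± 0.09 (SE, adjusted p = 0.009997). Mbnl2, a muscleblind protein, was the one that was higher, with 99.4 ± 4.5 CPM in Sms-OE and 77.4 ± 5.2 CPM in Control (SD, n = 3 each), and a log2 fold change of 0.36 ± 0.09 (SE, adjusted p = 0.0125). Of 8 exon junction complex genes 1 was lower, a share of 12.5% that is near the 14.3% of all genes, and 0 were higher. That gene was Magohb, with 7.64, 7.45 and 6.86 CPM in Sms-OE libraries, against 14.8, 18.2 and 20.1 CPM in Control libraries (log2 fold change -1.27 ± 0.15 SE, adjusted p = 0.000513). Its paralog Magoh was not called (log2 fold change -0.45 ± 0.16 SE, adjusted p = 0.0688).

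Transcript length moved with the fold changes in these libraries. Among all genes tested, the shortest of 4 equal length classes (up to 1320 bases) had 217 higher and 893 lower of 4568, and the longest class (over 3742 bases) had 1167 higher and 313 lower of 4562. The Snrp and Lsm transcripts are short, with medians of 1204.5 and 840 bases, against 2351 over all genes. In the shortest class 13 of 19 splicing factor genes were lower (68.4%), against 19.5% of all genes of that class, and 0 were higher. In the longest class 1 of 12 was higher and 1 was lower. Of the Snrp genes called lower, Snrpd2 (1420 bases) and Snrpb2 (2061 bases) lie in the next class, up to 2351 bases. In that class 18.6% of all genes were lower. Snrpd3 (3036 bases) lies in the class up to 3742 bases, where 12.3% of all genes were lower. Snrpc (758 bases) and Snrpb (1161 bases) lie in the shortest class and were not called. How far length enters these calls was not tested.

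With an offset for length and GC content fitted in each library, 13 of the 24 calls were kept and 5 others were added, for 13 lower and 5 higher. Of the Snrp genes, 6 stayed lower under these offsets (Snrpd1, Snrpd2, Snrpd3, Snrpe, Snrpa1 and Snrpb2), with a Snrp median log2 fold change of -0.36, and Snrpf, Snrpg and Snrpa were not called, at adjusted p of 0.137, 0.0653 and 0.0889. Snrpd2 stood at -0.66 (adjusted p = 0.00746) and Snrpd3 at -0.62 (adjusted p = 0.00688). The other 4 moved toward 0 by over 1.5 times: Snrpe to -0.45 (adjusted p = 0.0398), Snrpd1 to -0.42 (adjusted p = 0.0162), Snrpa1 to -0.46 (adjusted p = 0.0280) and Snrpb2 to -0.40 (adjusted p = 0.0189). Of the Lsm genes, 1 stayed lower, Lsm3 at -0.38 (adjusted p = 0.0329), and the Lsm median was -0.11. Sf3b1 was then at 0.24 and not called (adjusted p = 0.107), nor was Sf3b6 (-0.27, adjusted p = 0.0510). Sf3a3 (-0.33) and Sf3b2 (-0.26) stayed lower and Sf3b3 joined them at -0.31 (adjusted p = 0.0463). Hnrnpa1 was not called (adjusted p = 0.0767), Hnrnpab stayed lower, and Hnrnpu joined it at -0.25 (adjusted p = 0.0494). Srsf6 stayed higher at 0.41 and Srsf1 lower at -0.35, and Srsf5 (0.60) and Srsf7 (0.41) became higher. Hnrnpl became higher too (0.25, adjusted p = 0.0497), beside Hnrnph1 (0.61). With the replicate number added to that fit as a block, neither Hnrnpu nor Hnrnpl was called. Snrpb and Srsf3 changed sign, to 0.01 and 0.06, with no call.

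Of the 12 genes outside the name rule that were chosen by the rule for named genes, all 12 kept their call with these offsets, but 5 moved toward 0 by over 1.5 times: Clns1a to -0.33, Dhx38 to 0.23, Magohb to -0.84, Srrm2 to 0.47 and Ybx1 to -0.31. Without the haemoglobin-rich Sms-OE replicates 2 and 3, 7 of the 12 were no longer called: Gemin6 (adjusted p = 0.0610), Ybx1 (0.0618), Zmat2 (0.0736), Dhx38 (0.0843), Prpf39 (0.0865), Mbnl2 (0.134) and Nono (0.144). With any 1 library left out all 12 were called, except Mbnl2 without Control replicate 3 (adjusted p = 0.0535).

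**Figure D4:**
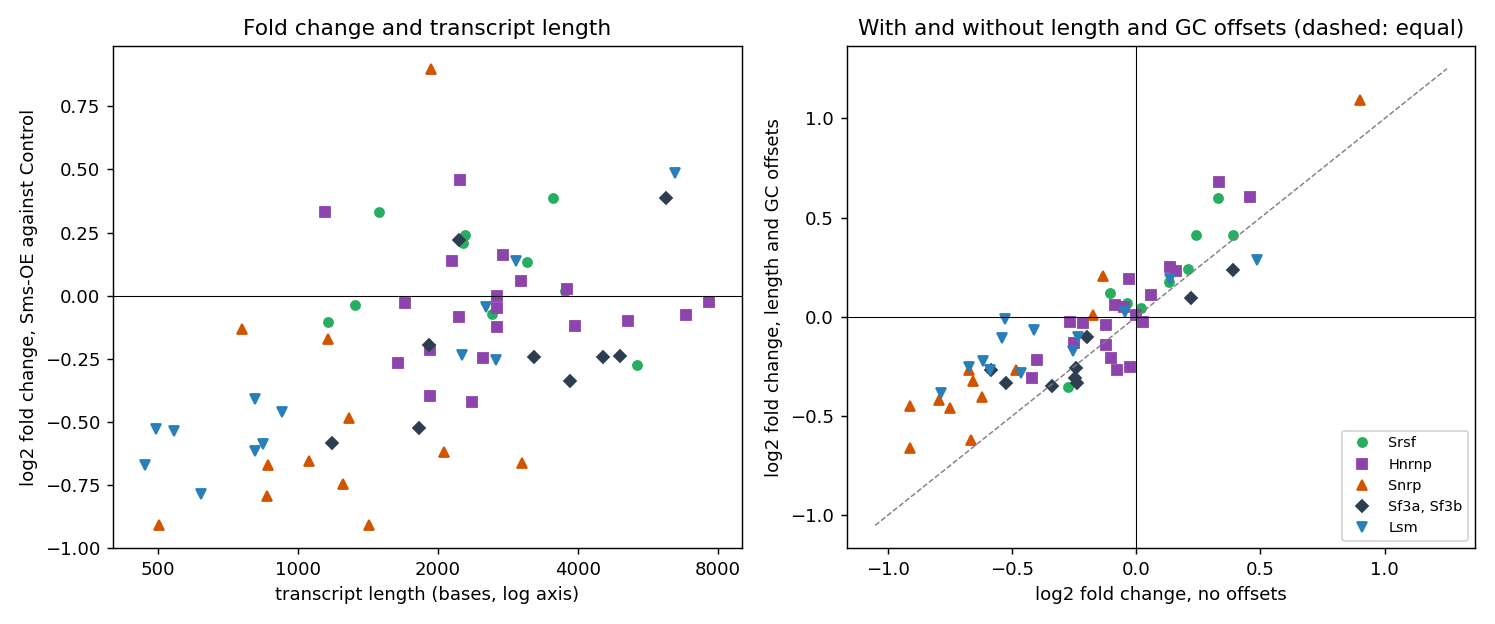
Left, log2 fold change of the 64 genes against transcript length in bases (log axis). Right, log2 fold change with length and GC offsets (y axis) against that without (x axis), with the line of equality dashed; each point is a gene, and the Lsm and Snrp points left of 0 lie above that line, so their fold changes were nearer 0 or above it with offsets.

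Many splicing factor genes have copies in the genome from which reads cannot be told apart with certainty. At least 95% identity over 200 aligned bases was found between 23 of the 64 genes and other annotated genes. The case that matters most is Hnrnpa3, whose 25 copies hold 605% of its own counts. Alone it had 30.4, 99.95 and 103 CPM in Sms-OE libraries, against 46.6, 44.9 and 93.9 CPM in Control libraries, with Sms-OE replicate 1 lowest of all, and it was not called (log2 fold change 0.33 ± 0.59 SE, adjusted p = 0.737). Summed with its 24 non-coding copies it had 369, 425 and 416 CPM in Sms-OE libraries, against 487, 470.5 and 600.2 CPM in Control libraries, groups that did not overlap, and a log2 fold change of -0.36 ± 0.12 (SE, adjusted p = 0.0413). Lsm5 with its copies had 11.4, 8.99 and 7.86 CPM in Sms-OE libraries, against 13.8, 16.01 and 16.4 CPM in Control libraries, and a log2 fold change of -0.71 ± 0.16 (SE, adjusted p = 0.0106). Lsm7 with its copies had 11.3, 9.81 and 8.84 CPM in Sms-OE libraries, against 14.2, 15.6 and 19.6 CPM in Control libraries, and a log2 fold change of -0.72 ± 0.16 (SE, adjusted p = 0.00910). So with copies added these 3 genes were lower in Sms-OE and the 24 calls made on the genes alone stood, for 3 higher and 24 lower, and 7 of the 8 LSm ring genes were called. That fit had no length and GC offsets, and copies were not added in the fit with offsets. With offsets on the genes alone, Lsm5 (-0.01, adjusted p = 0.984), Lsm7 (-0.25, adjusted p = 0.412) and Hnrnpa3 (0.68, adjusted p = 0.478) were not called. For Snrpe, whose copy holds 14.5% of its counts, the log2 fold change was -0.84 with the copy and -0.91 without.

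**Figure D5:**
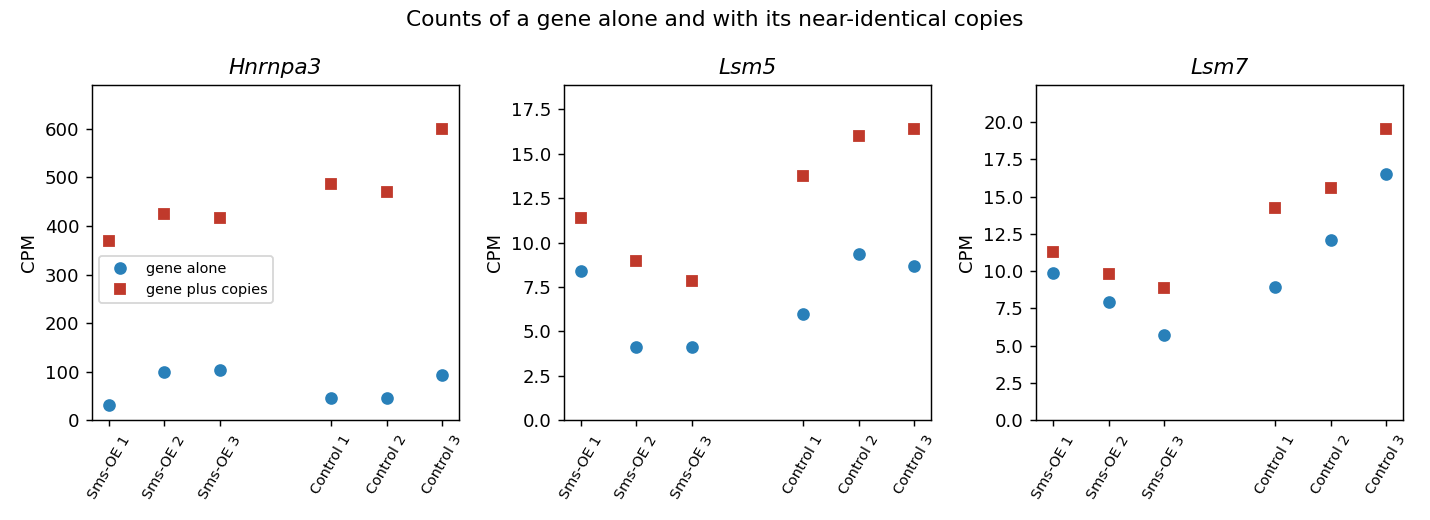
CPM in each library (x axis) of Hnrnpa3, Lsm5 and Lsm7 alone (circles) and with the counts of their near-identical non-coding copies added (squares), 3 Sms-OE libraries left and 3 Control libraries right. With copies added the groups no longer overlap in any of the 3 genes.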

How the data were processed

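RNA-seq libraries were made from oligo(dT)-selected RNA with dUTP and UDG, which mark the strand, per the labels' protocols. The submitters' processing notes name HISAT2 2.2.1, StringTie 2.1.6, DESeq2, cutadapt 1.9 and FastQC 0.11.9. The genome build, annotation and strand setting behind the counts are not stated there or in the labels. The authors deposited 1 table of estimated counts per gene, not normalized and held as whole numbers, for 55401 Ensembl identifiers. Their counting error is uncertain, since the way they were estimated is not stated. Overlapping genes may share reads: 29 of the 64 splicing factor genes are overlapped by another gene, on the same or the opposite strand.

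Symbols, biotypes, coordinates, lengths and GC content came from GENCODE M21 (GRCm38) by identifier, for 55141 rows. Length is that of the shortest principal transcript, or else of the longest transcript, a rule set after seeing an implausible length. Every splicing factor gene and 99.9% of tested genes have one.

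The sample titles gave each library's group and replicate number. Genes kept by filterByExpr were fitted in edgeR 4.0.16 under R 4.3.3 with TMM factors and tested with glmQLFTest after a robust glmQLFit. P-values were adjusted by Benjamini-Hochberg over 18277 genes, with calls under 0.05. Log2 fold changes are Sms-OE minus Control (prior count 0.125). Their standard errors were worked out from the F statistic. CPM use TMM-scaled library sizes. The fit was tested on simulated counts.

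The members and lists were chosen with earlier results of these data known. Named genes were, for each name group, up to 3 members higher and 3 lower with the smallest p and the 2 of highest CPM, and for each other list the 2 called genes per direction with the smallest p. All other called members were added after their values were seen, as was any other gene named with a value.

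Copies were found with blastn 2.17.0 at 95% identity over 200 bases and 50% of the copy. Alternatives were DESeq2 1.42.0 and limma-voom (limma 3.58.1), other scalings and filters, the replicate number as a block, length and GC offsets, a hepatocyte marker covariate (mean log2 of CPM plus 1), and each library left out. Removal of the haemoglobin-rich libraries and the addition of copies were chosen after seeing the data.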

Additional observations from a re-analysis of the deposited data

How the results depend on the processing

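Of all genes, 4908 were called, and 3050 to 4488 with 1 library left out, lowest without Control replicate 2. The counts were 2296 at an adjusted p under 0.01, 1384 without the haemoglobin-rich libraries and 0 with the hepatocyte marker covariate. The 3 splicing factor genes called higher became 5 with library size alone, with the DESeq2 Wald test and with length and GC offsets, with or without the replicate block. They became 6 at an adjusted p under 0.1, 0 with the hepatocyte covariate or without the haemoglobin-rich libraries, and 1 to 3 with 1 library left out, 1 being without Control replicate 2. The 21 called lower became 13 with length and GC offsets, 0 with the hepatocyte covariate, 6 without the haemoglobin-rich libraries, and 17 to 21 with 1 library left out. With the DESeq2 Wald test 23 were lower, and 24 with limma-voom. Of the 24 calls, 18 were made in all 6 fits with 1 library left out. Among the other splicing machinery genes, 18 higher became 0 with the hepatocyte covariate, 6 at an adjusted p under 0.01, 3 without the haemoglobin-rich libraries and 8 to 17 with 1 library left out. The 28 lower became 17 with library size alone, 17 with the replicate block and offsets, 18 with offsets alone, 0 with the hepatocyte covariate, 16 at an adjusted p under 0.01, 3 without the haemoglobin-rich libraries and 17 to 27 with 1 library left out.

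The members' share of counts differed by 0.01003 percentage points, Sms-OE minus Control, and by -0.018 without mitochondrial and haemoglobin rows. Signs changed with the hepatocyte covariate for Hnrnpa2b1 (0.0303), Lsm3 (0.22), Sf3b6 (0.17), Snrpd1 (0.12), Snrpd2 (0.0402), Snrpd3 (0.0135) and Srsf3 (0.13), each with an adjusted p of 0.934 or more. Hnrnpu was at 0.00969 with upper-quartile factors, 0.0358 with library size alone and 0.00349 at a CPM of at least 1. Snrpb and Srsf3 were at 0.0107 and 0.0591 with length and GC offsets, and at 0.00777 and 0.0589 with the replicate block added. Values were compared over 34 named genes and 24 settings. Of these, 714 kept direction and call, 79 kept direction but lost the call, 9 kept direction and gained one, and 14 changed sign. Among those 14, the values of Lsm3, Sf3b6, Snrpd1, Snrpd2 and Snrpd3 with the hepatocyte covariate lost the call as well. The cause of these changes was not tested.

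Same-numbered libraries deviated together with correlations of 0.192, 0.0476 and -0.0602, so the numbers were not taken to pair samples. With the replicate block alone 4532 genes were called, and 3 splicing factor genes were higher and 19 lower. Counts limit the lowest genes, such as Snrpn with 83 counts in all.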
